A study of Mus musculus with 6 samples.

Results

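9 genes that mark B cells, Cd79a, Cd79b, Ms4a1, Cd22, Ighm, Ighd, Igkc, Pax5 and Fcrla, were followed in RNA of mouse aortas. They were taken by symbol from the deposited table, which held all 9 of 9 among its 55487 genes. RNA was sequenced in 6 libraries from aortas stripped of their adventitia, which leaves media and intima. All recipients lacked Apoe (Apoe-/-), the apolipoprotein whose loss raises plasma cholesterol. All received Apoe-/- bone marrow at 8 to 10 weeks of age and had 4 weeks to recover. For another 6 weeks they were fed Western diet, with 21% fat and 0.15 to 0.2% cholesterol. In 3 libraries the recipients also carried ChemR23e/e, and these are called labelled ChemR23-deficient. The 3 libraries with Apoe-/- recipients alone are called labelled control. The genotype of the marrow donors names no ChemR23 allele in either group, so blood cells that grew from the graft differed in the host around them and not in their own labelled genotype. The labels give no sex and no number of host B cells that outlasted the transplant.

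B cells recognise antigen through a membrane immunoglobulin. Its heavy chain (Ighm for IgM, Ighd for IgD) and its light chain (mostly Igkc, kappa) bind antigen, and the Cd79a and Cd79b chains beside them carry the signal inward. Pax5 is the transcription factor that holds cells in the B lineage, Ms4a1 encodes CD20, Cd22 encodes an inhibitory co-receptor and Fcrla an intracellular Fc receptor-like protein. In atherosclerosis B cells are known mainly from the adventitia and from lymphoid tissue beside the artery, and B cell subsets have been given both protective and harmful roles in mouse models.

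The stretches that set Cd79a and Cd79b apart from Cd22 are shown because these genes lay on different sides of 0 here. They are parts of the encoded proteins, and no link between them and the RNA levels was tested. Cd79a and Cd79b each encode an activation motif (ITAM) with 2 tyrosines. The cytoplasmic end of Cd22 holds 4 matches to the inhibitory motif (ITIM), each built around 1 tyrosine. Sequences are coding strands from GENCODE M21 transcripts, with tyrosine codons in capitals.
Cd79a ITAM: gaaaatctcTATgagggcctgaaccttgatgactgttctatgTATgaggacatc
Cd79b ITAM: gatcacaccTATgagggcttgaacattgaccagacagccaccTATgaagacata
Cd22 ITIM match: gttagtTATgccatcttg
Cd22 ITIM match: gtcactTACtcggtgata
Cd22 ITIM match: atccatTACtcagagctg
Cd22 ITIM match: gtagacTATgtgaccctc

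Several facts of the series bear on all values. Reads assigned to genes came to 30887855 to 38600604 in a library. Values are normalized counts, that is read counts divided by 1 size factor per library, and 1 read is worth 0.86 to 1.11 of them. Deficient-labelled replicates 1 and 2 had Y-linked Ddx3y at 8.55 and 0 and Xist at 16080 and 13150, against 6374 and 373 in deficient-labelled replicate 3 and 6058 to 6796 and 8.87 to 22.04 in the controls. Sex pattern and group therefore overlap. Cmklr1, the gene of ChemR23, was not lower in the deficient-labelled libraries (1909 ± 431 against 1382 ± 346, SD, n = 3 each; limma adjusted p = 0.427). In the authors' deposited table the mean headed treated is the mean of the 3 libraries labelled control, and the mean headed control is that of the 3 labelled deficient. The table does not say which genotype it calls treated, so every direction given here follows the sample labels.

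The B cell genes were scarce in all 6 libraries, and all but Cd22 had the lower mean in the deficient-labelled libraries. Log2 differences are given as deficient-labelled minus control. For 8 of the 9 this difference was below 0, and the median over the 9 was -1.33, beside -0.006 over all 20669 genes tested. None of the 9 passed limma over all genes at an adjusted p under 0.05, where 0.135% of all genes did (0.0629% lower). At an unadjusted p under 0.05, 7 of the 9 were lower, beside 5.79% of all genes. That count was 3 without control replicate 1, 3 without control replicate 2 and 1 in the 4 libraries with Ddx3y above 100. DESeq2 on the recovered reads called 4 of the 9 lower (Cd79a, Cd79b, Ms4a1 and Igkc), beside 1.81% of the genes it tested (4.33% in either direction). On the same reads edgeR called 0, beside 0.00484%. In 5 of the 9 every deficient-labelled library lay below every control, which held for 8.24% of all genes. In bulk RNA, fewer B cells and less RNA per B cell cannot be told apart.

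**Figure D1:**
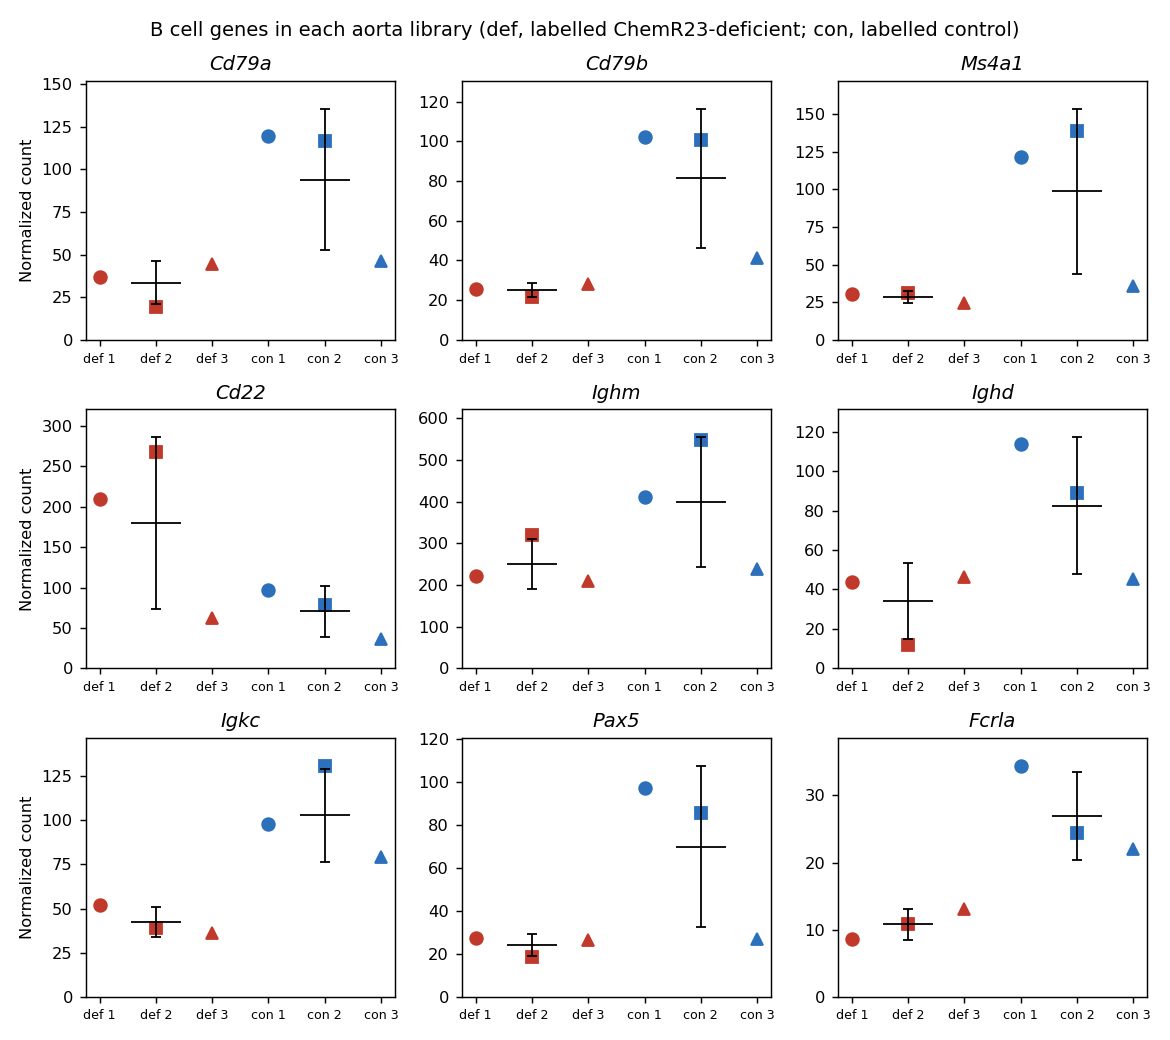
Normalized count (vertical axis, from 0) of each of the 9 B cell genes in each library, with red points for labelled ChemR23-deficient (def) and blue points for labelled control (con); the black bar is the mean and its whisker the SD over 3 libraries. Control replicates 1 and 2 stand high and control replicate 3 lies near the deficient-labelled libraries for most genes, while Cd22 is highest in deficient-labelled replicates 1 and 2.

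Among the signalling chains, Cd79b (ENSMUSG00000040592, chromosome 11, 106311341 to 106314762, GRCm38) was at 25.6, 21.6 and 28.3 normalized counts in deficient-labelled replicates 1 to 3 and at 102.4, 100.9 and 41.1 in control replicates 1 to 3. The groups did not overlap, and control replicate 3 held 40.4% of the mean of the other two controls. The log2 difference was -1.55 (SE 0.38, 95% interval -2.42 to -0.68, limma adjusted p = 0.168; DESeq2 adjusted p = 0.00414). Its partner Cd79a (ENSMUSG00000003379, chromosome 7, 24897381 to 24902197) was at 37.0, 19.4 and 44.5 in the deficient-labelled libraries and at 119.6, 116.5 and 46.1 in the controls. Deficient-labelled replicate 3 and control replicate 3 were 44 and 46 reads, so the gap between the groups rested on a difference within counting error. Its log2 difference was -1.41 (SE 0.45, 95% interval -2.45 to -0.38, limma adjusted p = 0.263; DESeq2 adjusted p = 0.0292).

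Ms4a1, the gene of CD20, had the control replicate 3 farthest below its group. Ms4a1 (ENSMUSG00000024673, chromosome 19, 11249675 to 11266241) was at 30.4, 31.3 and 24.3 in the deficient-labelled libraries and at 121.3, 138.6 and 36.1 in the controls. The groups did not overlap, yet control replicate 3 lay at 27.7% of the other two controls and just above the highest deficient-labelled library. The log2 difference was -1.54 (SE 0.48, 95% interval -2.66 to -0.43, limma adjusted p = 0.26; DESeq2 adjusted p = 0.00842). Pax5 (ENSMUSG00000014030, chromosome 4, 44524757 to 44710487) was at 27.5, 18.3 and 26.3 against 97.2, 85.4 and 27.1. Control replicate 3 lay inside the range of the deficient-labelled libraries, so the groups overlapped. The log2 difference of Pax5 was -1.33 (SE 0.48, limma adjusted p = 0.328; DESeq2 adjusted p = 0.0503). Exons of Pax5 share 636 and 125 bases with genes on the opposite strand, and no source used here names the strand setting of the counting.

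Fcrla (ENSMUSG00000038421, chromosome 1, 170917576 to 170927583) was the scarcest of the 9, with 9 to 13 reads in the deficient-labelled libraries and 22 to 40 in the controls. In normalized counts it was at 8.55, 10.8 and 13.1 against 34.4, 24.4 and 22.04. The groups did not overlap, and control replicate 3 was closer to the other controls than for any other member (74.9% of their mean). The log2 difference was -1.23 (SE 0.34, 95% interval -2.01 to -0.46, limma adjusted p = 0.206; DESeq2 adjusted p = 0.172).

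The immunoglobulin constant-region genes differed in how far the groups stood apart. The kappa gene Igkc (ENSMUSG00000076609, chromosome 6, 70726435 to 70726966) was at 52.2, 38.8 and 36.4 normalized counts in the deficient-labelled libraries and at 98.1, 130.9 and 79.1 in the controls. The groups stood well apart, and Igkc had the smallest SE of the 9 and the lowest unadjusted p (log2 difference -1.24, SE 0.26, 95% interval -1.83 to -0.65, limma adjusted p = 0.117; DESeq2 adjusted p = 0.00388). Ighm (ENSMUSG00000076617, chromosome 12, 113418558 to 113422730) was the most abundant member in counts, at 221.2, 320.5 and 209.3 against 412.1, 547.9 and 238.4. Deficient-labelled replicate 2 exceeded control replicate 3, and the log2 difference was -0.62 (SE 0.30, 95% interval -1.31 to 0.08, limma adjusted p = 0.468; DESeq2 adjusted p = 0.227). Ighd (ENSMUSG00000104213, chromosome 12, 113406604 to 113416324), which lies beside Ighm and is made by naive B cells, was at 43.7, 11.9 and 46.5 against 113.6, 88.7 and 45.1. Deficient-labelled replicate 2 had 11 Ighd reads, the lowest of all libraries, where it had 297 Ighm reads. The log2 difference of Ighd was -1.37 (SE 0.56, limma adjusted p = 0.383; DESeq2 adjusted p = 0.169). It was -0.76 without deficient-labelled replicate 2, and leaving out control replicate 2 or 3 moved that of Ighm to -0.35 or -0.95.

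Cd22 (ENSMUSG00000030577, chromosome 7, 30865402 to 30880342) lay on the other side of 0. It was at 209.8, 267.6 and 61.7 in the deficient-labelled libraries and at 96.4, 78.8 and 36.1 in the controls. Deficient-labelled replicates 1 and 2 stood above all controls and replicate 3 lay within their range. The log2 difference was 1.21 (SE 0.57, 95% interval -0.12 to 2.53, limma adjusted p = 0.455; DESeq2 adjusted p = 0.0966). In the 4 libraries with Ddx3y above 100, of which 1 is labelled deficient, it was -0.08 (limma adjusted p = 0.991), so the higher Cd22 values were those of the libraries that also had the female pattern. The macrophage list stood beside it: its 10 genes summed to 29710 and 43600 normalized counts in deficient-labelled replicates 1 and 2, to 11350 in replicate 3 and to 10170 to 14830 in the controls. Most of each sum was Lyz2, at 16070 and 25360 in deficient-labelled replicates 1 and 2, and Mertk, at 4111 to 5276 over all libraries. No macrophage gene of that list was at 0 in any library, and the part of these cells in the Cd22 values was not tested. Without deficient-labelled replicate 3 the difference was 1.85, without deficient-labelled replicate 2 it was 0.80 and without control replicate 3 it was 0.79. Cd22 exons share 479 bases with an antisense gene.

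In the authors' deposited table, whose fold changes have the opposite sign of the differences given here and are shrunk towards 0, the same 4 genes have an adjusted p under 0.05: Cd79a (0.0326), Cd79b (0.00454), Ms4a1 (0.0108) and Igkc (0.00364). Those values are also from DESeq2 on the same reads, so sharing the 4 genes with the DESeq2 fit above is no separate result. Of all genes with an adjusted p in the authors' deposited table, 4.38% reach that threshold. Cd22 has a log2 fold change of -0.53 in the authors' deposited table, with an adjusted p of 0.11.

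The libraries can be ranked by their B cell genes. The median deviation of the 9 members from their control mean, on the log2 scale, was -1.12, -1.41 and -0.96 in deficient-labelled replicates 1 to 3 and 0.46, 0.42 and -0.83 in control replicates 1 to 3. Control replicate 3 was thus nearer to the deficient-labelled libraries than to the other controls. Control replicates 1 and 2 held the highest value for 8 of the 9 members (5 and 3 genes), and deficient-labelled replicate 2 that of Cd22. Leaving out control replicate 3 moved the log2 differences of Cd79a, Cd79b, Ms4a1 and Pax5 to -1.86, -1.98, -2.15 and -1.90. None of the 9 passed limma in that fit, where 0.0339% of all genes did (7 genes, 0.029% lower).

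The members other than Cd22 varied together over the 6 libraries, with Pearson r from 0.41 to 0.97 (median 0.85) over their 28 pairs on the log2 scale. Cd22 had r from -0.59 to 0.06 with the other 8. These r values share the same 6 libraries and size factors and include the difference between groups. Per kilobase of exon, which allows levels to be compared between genes, the control means were highest for Ighm (211.8 normalized counts per kilobase) and Igkc (193.1). Cd79a (64.5), Cd79b (56.9) and Ighd (43.4) formed a middle tier whose neighbours did not differ beyond their spread between libraries. Ms4a1 (15.9), Fcrla (15.4), Cd22 (14.0) and Pax5 (7.89) were lowest, and the first 3 of these lay within each other's spread.

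Of 11 other genes of the B cell surface listed and tested, 7 were below 0 (median log2 difference -0.75), beside 51.2% of all genes. None passed limma or edgeR. At an unadjusted p under 0.05, 3 were lower and 1 higher, beside 5.79% and 6.36% of all genes. DESeq2 called 2 lower (Cr2 and H2-Ob) and 1 higher (Cd180), beside 1.81% and 2.52%. The counts of every list that follows stand against these same shares. Cr2, a receptor for complement fragments on B cells, was at 7.59, 4.32 and 3.03 in the deficient-labelled libraries and at 26.7, 28.8 and 13.0 in the controls (difference -1.99 on the log2 scale, SE 0.47, limma adjusted p = 0.154). H2-Ob, a chain of the H2-O molecule that tunes peptide loading of class II, was at 42.7, 22.7 and 39.4 against 87.8, 93.2 and 54.1 (log2 -1.15, SE 0.33, limma adjusted p = 0.22). Neither gene overlapped between groups. Cd37, a tetraspanin of B cells and other leukocytes, differed by 0.28 (SE 0.36, limma adjusted p = 0.815).

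Cd180, a Toll-like receptor relative found on B cells and macrophages, lay above 0, like Cd22. It was at 325.6, 377.7 and 120.3 in the deficient-labelled libraries and at 61.1, 68.8 and 51.1 in the controls. All 3 deficient-labelled libraries were above all controls, with a log2 difference of 2.02 (SE 0.40, 95% interval 1.09 to 2.95, limma adjusted p = 0.109; DESeq2 adjusted p = 1.57e-06). The macrophage gene Cd68 was at 1807, 2050 and 572 against 256 to 321. Lyz2, the most abundant of the macrophage list, was at 16070, 25360 and 4270 against 2576, 4854 and 2713 (log2 1.89, SE 0.59, limma adjusted p = 0.258). Of the 10 macrophage genes 9 were above 0 (median log2 difference 0.87). None passed limma or edgeR, 2 were higher and 1 lower at an unadjusted p under 0.05, and DESeq2 called 1. Cd68 alone had all deficient-labelled libraries above all controls, which held for 8.8% of all genes. Mertk alone had them all below (log2 -0.21, SE 0.08), which held for 8.24% of all genes. The other 8 genes, Adgre1 (0.28, SE 0.41) and Csf1r (0.25, SE 0.42) among them, overlapped. The part of these cells in the Cd180 values was not tested.

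Of 16 receptor signalling genes, many of which myeloid cells also use, 12 were above 0 (median log2 difference 0.53). Their median deviation from the control mean was 0.70 and 1.13 in deficient-labelled replicates 1 and 2, the libraries with the female pattern, and -0.09 in replicate 3. The macrophage sums given beside Cd22 were high in the same 2 libraries, and their part in the signalling values was not tested. None passed limma or edgeR, 6 were higher and 1 lower at an unadjusted p under 0.05 (beside 6.36% of all genes higher and 5.79% lower), and DESeq2 called 4 higher (Syk, Blnk, Vav1 and Pik3ap1), beside 2.52% of its genes. In 4 of the 16 every deficient-labelled library lay above every control, beside 8.8% of all genes. The kinase Syk, which docks on phosphorylated ITAMs, was at 688.3, 811.5 and 312.4 against 278.8, 332.8 and 253.5 (log2 0.96, SE 0.33, limma adjusted p = 0.294). The groups overlapped in Syk, and deficient-labelled replicates 1 and 2 were the highest. Blnk, the adaptor that links Syk to phospholipase, was at 143.4, 173.7 and 63.7 against 38.7, 46.6 and 61.1 (log2 1.27, SE 0.38, limma adjusted p = 0.242). Plcg2, the phospholipase, differed by 0.37 (SE 0.19). The B lymphoid kinase Blk, at 12.3, 3.24 and 16.2 against 43.9, 29.95 and 16.03, was the 1 gene lower at an unadjusted p under 0.05 (log2 -1.54, SE 0.60, limma adjusted p = 0.367).

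**Figure D2:**
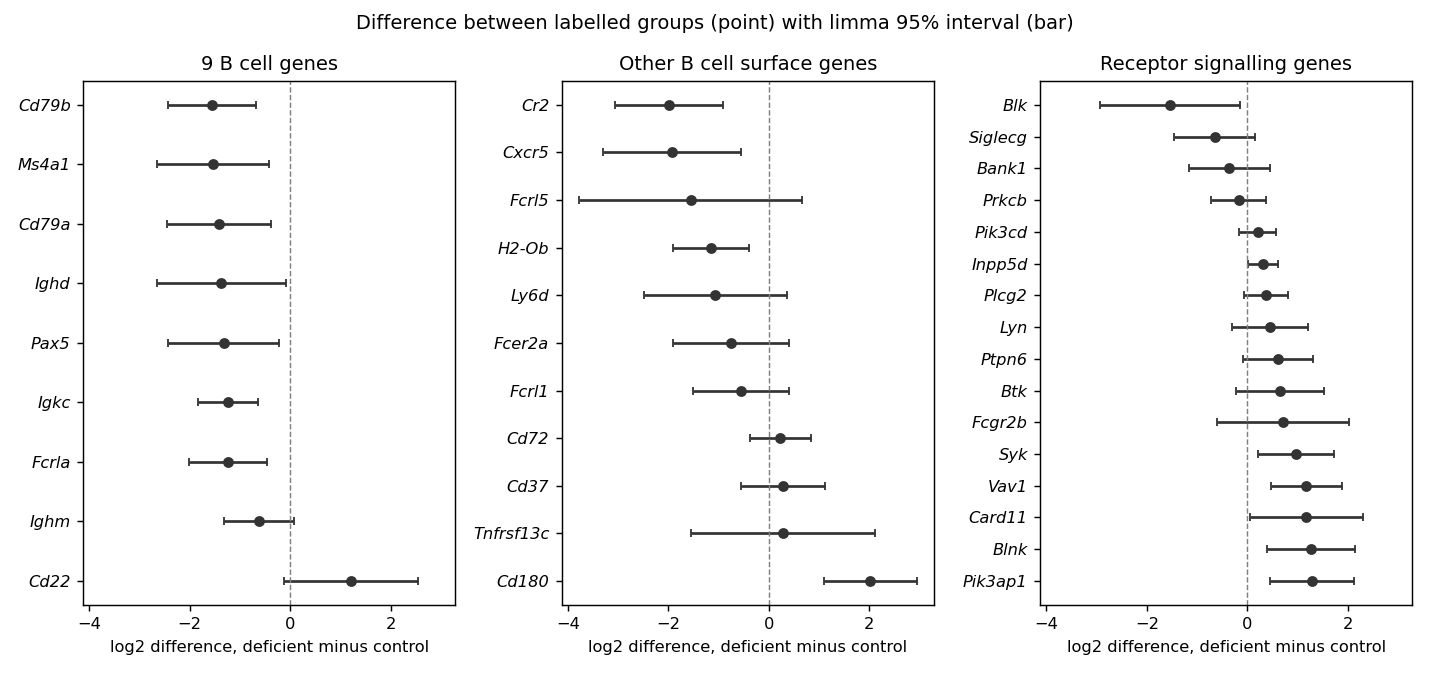
Difference in log2(normalized count + 1) between the groups (horizontal axis, above 0 where the mean of the ChemR23-deficient libraries is the higher), for the 9 B cell genes, 11 other B cell surface genes and 16 receptor signalling genes; points are limma estimates from 3 against 3 libraries and bars their 95% intervals. Cd22 at 1.21 stands to the right of the other members and Cd180 at 2.02 to the right of the other surface genes, and 12 of the 16 signalling genes lie above 0.

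Of 11 transcription factors of the lineage, 5 were above 0 and 6 below, with a median of -0.12. Ikzf3 (Aiolos), a lymphoid zinc finger factor, was at 22.8, 13.0 and 16.2 in the deficient-labelled libraries and at 86.9, 56.6 and 40.1 in the controls (difference -1.73 on the log2 scale, SE 0.36, limma adjusted p = 0.119; DESeq2 adjusted p = 0.00354). The coactivator Pou2af1 was at 19.0, 14.0 and 17.2 against 74.0, 63.2 and 21.0 (log2 -1.43, SE 0.47, limma adjusted p = 0.283; DESeq2 adjusted p = 0.0451). Neither overlapped between groups. Spi1 (PU.1), which myeloid cells also need, was at 253.5, 307.5 and 134.5 against 68.0, 117.6 and 112.2 (log2 1.17, SE 0.34, limma adjusted p = 0.22; DESeq2 adjusted p = 0.00881). Ebf1, also made by cells outside the lineage, was at 2831 ± 161 against 3091 ± 237 (SD, n = 3 each; log2 -0.12, SE 0.08), and Foxo1 differed by 0.03 (SE 0.10). None of the 11 passed limma or edgeR. At an unadjusted p under 0.05, 1 was higher and 2 lower (6.36% and 5.79% over all genes), and DESeq2 called the same numbers (2.52% and 1.81%).

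The gene whose pattern over the 6 libraries was most like the mean of the 9 members was Pou2af1 (Pearson r = 0.998 among 14000 genes with a mean of at least 20). The next 9 were Aldh2, Lrrc8c, Wdfy2, Gcdh, Cdkn1a, Prag1, Zbtb16, Baiap2 and Osbpl9, with r down to 0.978. The largest difference among them was in Zbtb16, at 1085, 1104 and 1371 in the deficient-labelled libraries and 12290, 8006 and 1461 in control replicates 1 to 3 (log2 -2.15, SE 0.68, limma adjusted p = 0.262). Cdkn1a was at 3928, 2924 and 2921 against 6202, 6184 and 3679 (log2 -0.69, SE 0.21, limma adjusted p = 0.254). In both, as in the B cell genes, control replicates 1 and 2 were high and control replicate 3 was near the deficient-labelled libraries. Choosing genes by their r with the members selects for such an order, so it is no separate result. Osbpl9 differed by only -0.08 (SE 0.06), since the measure scores shape and not size.

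Each B cell joins 1 of many variable (V) gene segments to its heavy and to its light chain, so the spread of reads over V genes describes the repertoire. The table held 348 V genes, 185 of the heavy chain, 160 kappa and 3 lambda. Their summed normalized count was 76.9, 98.2 and 76.8 in the deficient-labelled libraries and 293.4, 382.7 and 143.3 in the controls. At least 2 reads were found for 13, 15 and 17 V genes against 59, 53 and 32. The groups did not overlap in either measure, which gives p = 0.1 in an exact two-sided permutation test over 3 against 3 libraries, the smallest p it can reach. The number of V genes found also depends on the V reads in a library, which were 81, 91 and 76 against 341, 345 and 143. No count at equal depth was made, so a narrower repertoire cannot be told from fewer V reads. The mean sum in the deficient-labelled libraries was 0.31 of that in the controls. Of the 348 V genes 152 had any read and 48 had a mean of at least 1, a minimum that scarce genes can pass through the group where they are higher. Limma and edgeR called none of the 48, DESeq2 called 1 and 12 had an unadjusted p under 0.05 (4.33% and 12.2% over all genes), and given that minimum nothing is read from these counts. V genes form families of near-identical copies, so reads may have been split or lost between them.

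Relative to Cd79a the V counts overlapped between the groups. The summed V count per Cd79a count was 2.08, 5.06 and 1.73 in the deficient-labelled libraries and 2.45, 3.29 and 3.11 in the controls, with means of 2.95 ± 1.83 and 2.95 ± 0.44 (SD, n = 3 each; exact two-sided permutation p = 1.0). Deficient-labelled replicate 2 stood high in this ratio and in Ighm per Cd79a, at 16.5 against 5.97 and 4.71 in the other libraries of its group and 3.45 to 5.17 in the controls. In that library 2 V genes held much of the V reads, Igkv3-2 with 22 of 91 reads (24.2%, Wilson 95% interval 16.5 to 33.9) and Ighv1-9 with 21 (23.1%, 15.6 to 32.7). Ighg3, the IgG3 constant region, was at 47.5 there and at 0 to 6.07 in every other library. In deficient-labelled replicate 1, Ighv1-75 held 20 of 81 V reads (24.7%, 16.6 to 35.1). The leading V gene of deficient-labelled replicate 3 and of control replicate 1 was Iglv1, with 9.21% and 6.45% of V reads. Ighv1-9 led in control replicate 2 (14.8%) and Ighv3-1 in control replicate 3 (16.1%). Intervals cover counting error only. Over all libraries the V genes with the highest means were Ighv1-9 (14.6 normalized counts), Iglv1 (8.46), Igkv12-44 (7.66), Igkv3-2 (5.88) and Igkv15-103 (4.49).

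**Figure D3:**
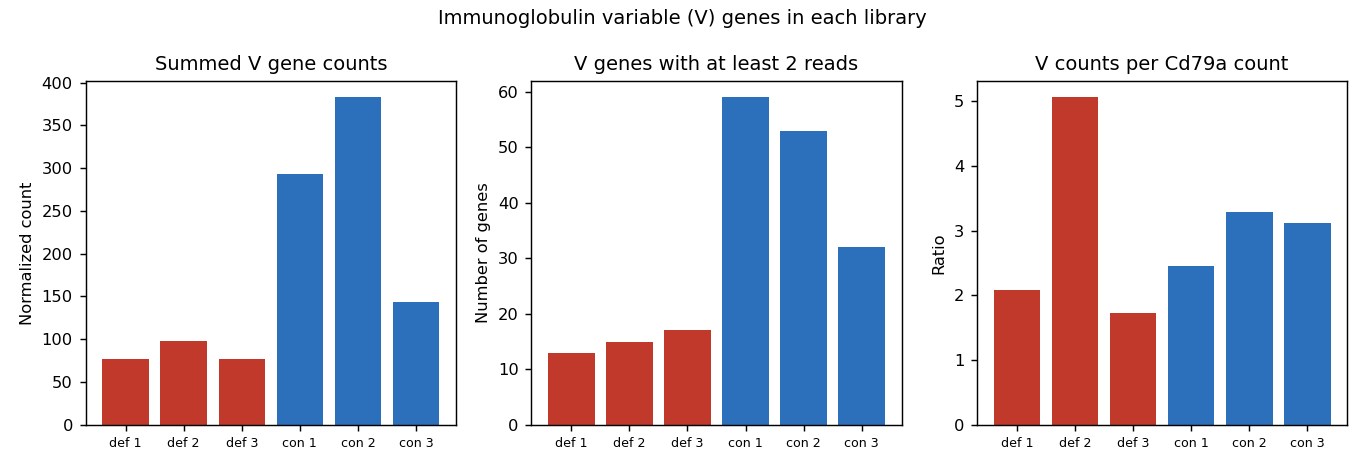
Immunoglobulin V genes in each library (red, labelled ChemR23-deficient; blue, labelled control): the summed normalized count, the number of V genes with at least 2 reads, and the summed V count per Cd79a count, with 1 bar per library and no error bar. Sum and number are lower in the 3 deficient-labelled libraries (76.8 to 98.2 and 13 to 17) than in the controls, while the ratio to Cd79a spans 1.73 to 5.06 and 2.45 to 3.29.

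Class-switched constant regions made up little of the heavy-chain counts. Their share was 10.9%, 14.4% and 8.00% in the deficient-labelled libraries and 6.58%, 5.44% and 12.9% in the controls (11.1 ± 3.23% against 8.31 ± 4.03%, SD, n = 3 each; exact two-sided permutation p = 0.4). The groups overlapped, and the gene that made up the share changed from library to library. Ighg1 was at 40.1 in control replicate 3 and at 0 to 2.16 elsewhere, Igha was between 0 and 33.3, and Ighe was listed at 0 in all 6. The lambda share of light-chain counts was 33.7%, 21.7% and 35.7% against 37.4%, 22.4% and 19.4% (exact two-sided permutation p = 0.8), and Igkc per Cd79a was 1.41 ± 0.59 against 1.22 ± 0.46 (p = 0.8 by the same exact test). Of 7 heavy-chain and 4 light-chain constant genes tested, limma and edgeR called 0, DESeq2 called Igkc, and Ighd and Igkc had an unadjusted p under 0.05. The lists had medians of -0.62 and -1.005. Iglc2, the most abundant lambda gene, differed by -0.77 (SE 0.44).

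Plasma cell genes lay on both sides of 0. Of 10 tested 6 were above 0 (median log2 difference 0.09), 0 were called by limma, edgeR or DESeq2 and 1 had an unadjusted p under 0.05. That gene, Sdc1, was higher without overlap, at 1927, 1574 and 1409 against 1077, 1142 and 1362 (log2 0.45, SE 0.13, limma adjusted p = 0.241). Jchain, which joins IgM and IgA into polymers, was at 35.1, 14.0 and 8.09 in the deficient-labelled libraries and at 13.8, 14.4 and 15.0 in the controls. Mzb1, a chaperone of immunoglobulin assembly, was at 2.85, 2.16 and 1.01 against 5.16, 5.55 and 4.01, with no overlap but 1 to 6 reads a library (log2 -1.02, SE 0.46, limma adjusted p = 0.434). The most abundant, Txndc5 and Xbp1, are secretory genes that many cells express, and differed by 0.19 (SE 0.09) and 0.04 (SE 0.10).

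Among survival factors and their receptors, the tumour necrosis factor family members diverged. Cd40, which receives T cell help on B cells and is also made by macrophages and vascular cells, was at 117.7, 116.5 and 104.1 in the deficient-labelled libraries and at 42.2, 48.8 and 44.1 in the controls. The groups stood far apart, with a log2 difference of 1.31 (SE 0.18, 95% interval 0.89 to 1.72, limma adjusted p = 0.053; DESeq2 adjusted p = 4.6e-05). Tnfsf13b (BAFF), the main survival factor of mature B cells, was at 36.1, 70.1 and 66.7 against 79.2, 158.6 and 94.2 (log2 -0.92, SE 0.35, limma adjusted p = 0.345). Its groups did not overlap either. Tnfsf13 (APRIL) went the other way, at 114.9, 89.6 and 57.6 against 59.4, 47.7 and 37.1, with overlap (log2 0.82, SE 0.30, limma adjusted p = 0.341). The BAFF receptor Tnfrsf13c, at 8.54, 9.71 and 7.08 against 18.1, 11.1 and 1.002, overlapped between groups and was lowest in control replicate 3. Of the 8 genes tested limma and edgeR called 0, 2 were higher and 1 lower at an unadjusted p under 0.05, DESeq2 called 1 higher, and the median was 0.16.

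Of the genes that recruit and place B cells, Cxcr5, the receptor that guides them to follicles, was at 7.59, 2.16 and 12.1 against 32.7, 35.5 and 15.0 (log2 -1.93, SE 0.60, limma adjusted p = 0.255). Its ligand Cxcl13 was uneven, at 8.54, 21.6 and 0 against 2.58, 42.1 and 142.3, and its highest value was in control replicate 3, where the B cell genes were lowest among the controls. Ltb, a lymphotoxin subunit, was at 13.3, 12.9 and 9.10 against 34.4, 33.3 and 15.0 (log2 -1.09, SE 0.41, limma adjusted p = 0.341). The most abundant genes, Cxcl12 and S1pr1, differed by -0.05 (SE 0.19) and -0.50 (SE 0.20). Cxcr4, the Cxcl12 receptor of many leukocytes, differed by 1.05 (SE 0.35, limma adjusted p = 0.283) and was the 1 gene DESeq2 called. The 10 tested had a median of -0.58. Limma and edgeR called 0 of them, and at an unadjusted p under 0.05 there were 2 higher and 3 lower. Ccl21a was listed at 0 in all libraries.

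Genes of developing lymphocytes were scarce and uneven. Igll1, Vpreb2, Rag2 and Dntt were each listed at 0 in at least 4 libraries and never above 2.58. Vpreb1, a surrogate light chain gene, was read in all 6, at 9.49, 12.9 and 2.02 in the deficient-labelled libraries and 6.88, 8.87 and 2.004 in the controls (log2 0.31, SE 0.71). Rag1, which cuts DNA for V gene joining, reached 9.10 in deficient-labelled replicate 3 and was at 0 to 7.76 elsewhere. Il7r was at 470.9, 484.5 and 163.8 against 120.5, 53.2 and 100.2 (log2 1.94, SE 0.46, limma adjusted p = 0.159; DESeq2 adjusted p = 4.02e-05), and it is also a T cell gene. Cd93, abundant in endothelium, differed by 0.17 (SE 0.16). In the B-1 list Bhlhe41 and Plscr1 differed by 0.71 (SE 0.26) and 0.06 (SE 0.20). Their means over all libraries were 106.7 and 91.5 normalized counts per kilobase of exon, above 43.8 for Cd79a. The part of B cells in them was not tested. Cd5 was also above 0 (0.04, SE 0.55), and Spn (-0.36, SE 0.21), Zbtb32 (-1.325, SE 0.98) and Ctla4 (-1.34, SE 0.73) were below. Limma and edgeR called 0 in either list, DESeq2 called 1 and 0, 1 gene in each had an unadjusted p under 0.05, and the medians were 0.17 over 5 genes and -0.16 over 6.

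Other blood and tissue cells differed between the same libraries, and their part in the B cell values was not tested. The 7 erythroid genes found, of 8 listed, summed to 1689, 3632 and 11120 normalized counts in the deficient-labelled libraries and to 93150, 101500 and 289800 in the controls. All 7 were lower at an unadjusted p under 0.05 (5.79% over all genes) and Hbb-bt passed limma (log2 -5.52, SE 0.59, adjusted p = 0.045), as did 0.0629% of all genes in that direction. Neutrophil and platelet genes lay in the same direction, with sums of 214.6 to 323.7 against 630.0 to 1209 and of 136.5 to 271.9 against 666.8 to 1065, and Cxcr2 (log2 -3.35) and Ppbp (log2 -3.26) passed limma, each with an adjusted p of 0.045. Control replicate 3, lowest in B cell genes among the controls, was the highest of all libraries in erythroid and platelet genes.

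Of 12 T cell genes 9 were below 0. Together they summed to 445.3, 574.1 and 219.4 in the deficient-labelled libraries and to 438.0, 453.7 and 230.4 in the controls (median log2 difference -0.28). In deficient-labelled replicates 1 and 2 most of that sum was Cd4, Thy1 and Cd28, so it does not give the level of the receptor chains. None of the 12 passed limma or edgeR, 1 was higher and 1 lower at an unadjusted p under 0.05, and DESeq2 called 1. Among the chains of the T cell receptor complex, Cd3d was at 6.65, 4.32 and 10.1 against 19.8, 12.2 and 17.03 without overlap (log2 -1.15, SE 0.41, limma adjusted p = 0.327). Cd3e was at 11.4, 8.63 and 7.08 against 20.7, 8.87 and 11.02. Cd3g went the other way, at 11.4, 15.1 and 12.1 against 20.7, 2.22 and 11.02 (log2 0.55, SE 0.67). Trac differed by -0.23 (SE 0.54), and Cd3e, Cd3g and Trac overlapped between groups. The more abundant Thy1, also made by stromal cells, differed by -0.18 (SE 0.55). Cd4 and Cd28 were highest in deficient-labelled replicates 1 and 2 (144.3 and 143.5 for Cd4 against 22.04 to 30.3 in the other 4 libraries). Of 7 plasmacytoid dendritic cell genes limma, edgeR and DESeq2 called 0, and 1 was higher and 1 lower at an unadjusted p under 0.05. Siglech, the defining one, was at 0.95 to 3.24 in the deficient-labelled libraries and 4.44 to 24.9 in the controls, and the abundant Tcf4 and Bst2 differed by -0.06 (SE 0.10) and 0.35 (SE 0.14).

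Tissue carried over from outside the media was uneven. The 7 adipocyte genes summed to 2186, 24130 and 1875 in the deficient-labelled libraries and to 10910, 49090 and 11160 in the controls. All 7 were below 0 and 5 were lower at an unadjusted p under 0.05 (5.79% over all genes). Limma and edgeR called 0 and DESeq2 called 1. Fabp4 made up most of the sum in deficient-labelled replicates 1 and 3 (1930 and 1705). Adipoq was at 13.3, 1711 and 1.01 against 574.8, 5082 and 1010. The 7 lymphatic endothelial genes summed to 400.3 to 598.1 against 520.6 to 1141. Of the 6 tested 3 were below 0 and 3 above, with Flt4 at 274.0 to 398.8 in all libraries and Mmrn1 at 0 to 2.16 against 24.95 to 178.6. Adventitial fibroblast genes summed to 16010 to 25430 against 23430 to 31180. The largest part of each sum was Dcn, at 5978, 9097 and 6238 against 11220, 13340 and 15810. Of these 8 genes 6 were below 0 and 2 above, Lum (0.175, SE 0.265) and Cd34 (0.15, SE 0.13), with a median of -0.28. The part of this tissue in the B cell values was not tested. The labelled tissue was present in all, with smooth muscle genes summing to at least 1282000 and endothelial genes to at least 68190.

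**Figure D4:**
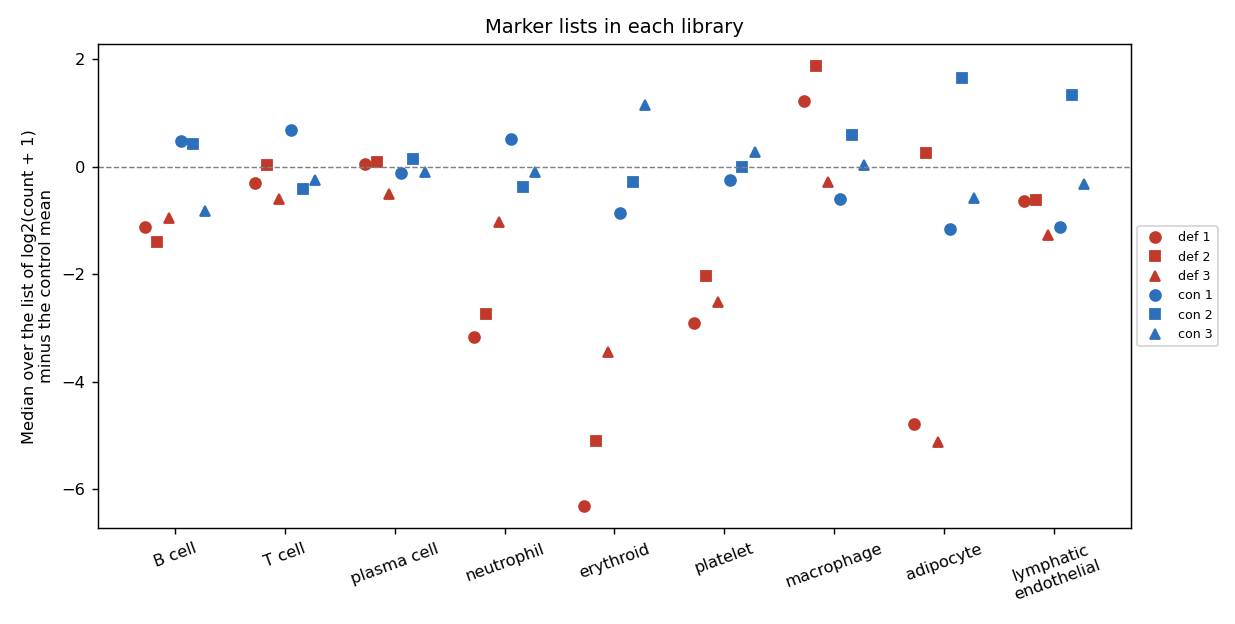
Median over each marker list of log2(normalized count + 1) minus the gene's control mean (vertical axis), in each library; red, labelled ChemR23-deficient, and blue, labelled control, with the marker shape giving the replicate. For the B cell genes control replicate 3 (-0.83) lies close to the deficient-labelled libraries (-1.41 to -0.96), whereas for erythroid genes it is the highest library (1.14).

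Of the 9 B cell genes 4 matched a RefSeq start-site window on GRCm38.p6 (Cd79a, Cd22, Pax5 and Fcrla). The 250 bases before each start were searched on both strands for 3 motifs of B cell factors, the octamer ATGCAAAT, the EBF motif (TCCC, any 2 bases, GGGA) and the PU.1 motif GAGGAAGT. No match overlapped another. Only the Cd22 window held a match, to the EBF motif, shown here with its flanks because Cd22 was the member above 0 (chr7:30879058-30879087, minus strand, motif in capitals).
Cd22 EBF match: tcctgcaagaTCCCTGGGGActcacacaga
The EBF motif was found in 0.779% of all 32851 such windows, the octamer in 1.6% and the PU.1 motif in 2.44%. Of the other B cell surface genes 9 had a window, and 3 of their 12 windows held the PU.1 motif (Cd37, Cd72 and Fcrl1).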

How the data were processed

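The authors deposited 1 table for 55487 genes with a signal per library, gene read counts divided by a size factor. The submitters' processing notes list HISAT2 2.2.1, featureCounts 2.0.1 and DESeq2 1.36.0 on GRCm38. Neither annotation nor strand setting is named in the sources used here. The table also holds the authors' log2 fold changes and p-values. On the recovered reads, DESeq2 with a fold-change prior returned those fold changes with their sign turned, within 7.72e-07 for 28288 genes. Of 3422 missing symbols 3304 were filled by gene ID.

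Whole reads were recovered by dividing each library by its smallest value above 0; 100% of values came out whole within 0.001. For the libraries numbered 3 in both groups that smallest value is close to 1 and could not be told from rounding by an automated check. The test was limma 3.58.1 with a mean-variance trend, run on log2(normalized count + 1) of 20669 genes with a mean of at least 1, two-sided, with Benjamini-Hochberg adjustment over all of them. This scale understates differences of low genes. SE is limma's moderated standard error and errors beside means are SDs. Alternatives were edgeR 4.0.16 (quasi-likelihood, TMM), DESeq2 1.42.0, other pseudocounts, filters and scalings, each library left out, and only libraries with Ddx3y above 100 (Y-linked expression). The fits were tested on simulated data. R 4.3.3, Python 3.11.15 and scipy 1.17.1 were used, with gene positions and exon lengths from GENCODE M21 (GRCm38). Sequences of start-site windows are from RefSeq (GRCm38.p6).

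Libraries carry names, not replicate numbers. Replicates 1 to 3 follow the order of deposition and pair nothing. Nothing states that each library is a separate animal, so p-values measure the spread between these samples. The members and the 24 gene lists were chosen with earlier results of these data known. Genes named are the 9 members, from each B cell or leukocyte list the called genes or else the 2 with the highest mean, the 10 genes most like the members, the 5 leading V genes and Cmklr1. The other genes named, the per-library leading V genes and the ratios of Ighm and V counts to Cd79a were chosen after their values were seen. A gene of these lists is not reported here and is in none of their counts.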

Additional observations from a re-analysis of the deposited data

How the results depend on the processing

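The direction of the 8 members below 0 held under all 15 alternatives. Cd22 reversed in the Y-expressing libraries, to a log2 difference of -0.075, and otherwise ranged up to 1.85. The cause was not tested. Under limma 0 members were called in every setting, while DESeq2 called 4. The 28 genes called over all genes by limma became 91 with all genes above 0, 1 with a mean of at least 10, 1 with edgeR, 704 with DESeq2, 0 to 427 with 1 library left out and 0 in the Y-expressing libraries. The 3 called genes of the lists became 5 with a pseudocount of 5, 16 with all genes above 0, 0 with a mean of at least 10, 0 with edgeR, 41 with DESeq2, 0 to 38 with 1 library left out and 0 in the Y-expressing libraries. Of the fits that leave out 1 library, the counts 427 and 38 were those without deficient-labelled replicate 3, when sex pattern and group coincide and cannot be told apart. With 1 library left out, the lowest log2 differences of Cd79b and Igkc were -1.98 and -1.41 and the highest -1.33 and -1.05. The difference in the number of V genes detected, -33.0, was -50.3 with at least 1 read and -12.3 with at least 5, since the minimum itself sets how many scarce genes count. No paired analysis was possible because the labels give no replicate numbers. The member values rest on 9 to 494 reads each.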

Other observations

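The genes whose pattern over the 6 libraries was most like that of Cd22 were looked up after its values had been seen, among the same 14000 genes. The closest were Skap2 (r = 0.991) and Pdxk (r = 0.988), with log2 differences of only 0.06 (SE 0.07) and 0.17 (SE 0.09), and Pafah2 and Snapc2 further down differed by 0.08 and 0.09. Among the first 10 were also Ncf4 (r = 0.988), a subunit of the phagocyte oxidase, and Ptpn6 (r = 0.981), which encodes the phosphatase SHP-1 that binds phosphorylated ITIMs such as those of Cd22. Ptpn6 was at 264.9, 332.4 and 143.6 normalized counts in deficient-labelled replicates 1 to 3 and at 169.5, 165.3 and 126.2 in the controls (log2 difference 0.61, SE 0.30, limma adjusted p = 0.468). Ncf4 was at 94.9, 89.6 and 43.5 against 58.5, 52.1 and 33.1 (log2 0.61, SE 0.36, limma adjusted p = 0.549). In both, as in Cd22, deficient-labelled replicates 1 and 2 were the highest libraries and control replicate 3 the lowest. The antigen-presentation genes H2-T23 (r = 0.984) and Tap1 (r = 0.982) had the same order at the top and bottom. Choosing genes by their r with Cd22 selects for such an order, so it is no separate result.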
